A study of Mus musculus with 24 samples.

Results

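Of 34 genes of the ATF4 and amino acid stress response, 5 of 28 tested (17.9 percent) were called in E9.5 embryos lacking Cmtr2, where 13.6 percent of all genes tested were called. In the main fit, with genotype alone in the model, none was called in E8.5 embryos or in the E9.5 yolk sac. Array weights or voom, also with genotype alone, each called Gpt2 in yolk sac, beside 5.49 and 3.79 percent of all genes. A term splitting replicates 1 and 2 from 3 and 4 gave 5 of 29 in E8.5 embryos, beside 12.7 percent of all genes. With replicate number as a block, 2 of 27 were called in yolk sac, Gpt2 and Cebpb, beside 5.31 percent of all genes. The split called Gpt2 and Slc38a2 there, beside 6.51 percent of all genes. The 34 genes were taken as a list of symbols from the 54532 gene IDs of each deposited table. The list was chosen with earlier results of these data known. In the E9.5 embryo, Eif4ebp1, Stc2, Shmt2 and Slc3a2 were higher in the knockout and Slc38a2 was lower, while Atf4 itself and the genes most often used to read its activity, Ddit3, Trib3 and Asns, were not called in any of the 3 sample sets.

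Cmtr2 is a methyltransferase that modifies the cap at the 5′ end of mRNAs. RNA was sequenced from Cmtr2 constitutive knockout (KO, Cmtr2-/-) and wild-type (WT) littermate mice in 3 sets of 4 KO and 4 WT libraries, taken from the E8.5 embryo, the E9.5 embryo and the E9.5 yolk sac (E, days of embryonic development). By the series' description, KO embryos looked like their WT littermates at the earlier stage, their size at the later stage was below that of littermates, and the libraries came from 2 litters at E8.5 and 4 litters at E9.5. Strain, the deleted sequence and the litter of each library remain not given in the sources used here, and p-values measure only the spread between these libraries. Depth was between 15555437 and 23379871 recovered fragments per library, and FPKM (fragments per kilobase of gene length, relative to the fragments in the library) of Cmtr2 in KO libraries was 11.4 percent of the WT mean in E8.5 embryos, 15.4 percent in E9.5 embryos and 5.52 percent in yolk sac. The summed level of 20 visceral endoderm markers was 10045 to 15139 in yolk sac KO libraries and 10504 to 15087 in yolk sac WT libraries, against 90.0 to 677 in E9.5 embryo KO libraries and 34.8 to 415 in E9.5 embryo WT libraries, and so it followed the tissue labels. Among E9.5 embryos, KO replicate 2 and WT replicates 1 and 3 stood apart by low tail genes, and the calls are given with and without them.

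ATF4 is a transcription factor whose protein is made in larger amounts when eIF2, the factor that brings the initiator tRNA to ribosomes, is phosphorylated by kinases that sense amino acid shortage, unfolded protein in the endoplasmic reticulum, haem shortage or viral RNA. Its mRNA level therefore reports little of its activity, and its targets are read instead. ATF4 pairs with C/EBP proteins on a composite DNA element and raises genes for serine and asparagine synthesis, mitochondrial folate enzymes, amino acid transporters, and feedback regulators such as Trib3 and Ppp1r15a. Growing embryos depend on serine and folate metabolism for nucleotides, and the transporters of the yolk sac feed the embryo before the placenta works.

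The composite element was searched for as TGATGNAAN on both strands in RefSeq promoters (GRCm38.p6, 250 bases before to 50 after each annotated start), because it is the sequence through which ATF4 is known to act. Of 34 members, 30 had a promoter sequence, and 10 of these 30 (33.3 percent) held a match, against 3.95 percent of all 32851 promoters and 4.5 percent of all 27025 genes with one. Because the list was made of genes linked to ATF4 and amino acid stress, this comparison of shares is a description. The 10 members were Asns, Atf3, Chac1, Fgf21, Nupr1, Pck2, Pycr1, Slc7a11, Trib3 and Vldlr. Of these 10, 6 were tested in at least 1 set, and none of the 6 was called in the main fit. Some other settings called Atf3 in E9.5 embryos and Pycr1 in both embryo sets. Those settings called 10.8 to 29.1 percent of all genes in E9.5 embryos, and 9.66 and 12.7 percent in E8.5 embryos. Of the 5 called members, 4 had a promoter sequence and none of the 4 held a match. Sequence outside the window was not searched, so these counts do not tell whether a called member is an ATF4 target. The matches are printed below in the direction of the motif, with the motif in capitals and 10 bases on each side. They were picked for printing after the expression values had been seen.
Asns, chr6:7693214-7693242, minus strand: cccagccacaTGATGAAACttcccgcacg
Atf3, chr1:191183426-191183454, plus strand: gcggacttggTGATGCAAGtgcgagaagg
Chac1, chr2:119351038-119351066, minus strand: ctggcaggagTGATGCAACggcagggaag
Fgf21, chr7:45615612-45615640, plus strand: cctggacggaTGATGCAATgggggggtct
Nupr1, chr7:126625563-126625591, plus strand: aagccctgtcTGATGCAATctggcccttt
Pck2, chr14:55540152-55540180, minus strand: tgtaagatacTGATGTAACtttgaaggct
Pycr1, chr11:120643833-120643861, minus strand: gccctgtgtaTGATGCAATgcacaaggct
Slc7a11, chr3:50443643-50443671, plus strand: ggctgcatgaTGATGCAAAttctccaggt
Slc7a11, chr3:50443661-50443689, minus strand: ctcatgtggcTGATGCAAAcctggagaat
Trib3, chr2:152344029-152344057, plus strand: cccgcccggcTGATGTAAAcctgagctaa
Vldlr, chr19:27216809-27216837, minus strand: ctaggagcgcTGATGCAACtattgctgct
Slc7a11 was the member with 2 matches, on opposite strands, whose printed windows overlap. The Trib3 match began 14 bases into the transcript, and the others lay upstream of the RefSeq start, from 23 bases before it in Asns to 201 bases before it in Vldlr. A match describes these letters and shows no binding.

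Levels are FPKM after median-of-ratios scaling, done separately in each table, and log2 fold changes are KO minus WT on log2(scaled FPKM + 0.5). Genes were tested with limma where FPKM reached 1 in at least 4 of the 8 libraries, and calls needed an adjusted p (Benjamini-Hochberg, over all genes tested) under 0.05. Of the 34 members, 29 were tested in E8.5 embryos, 28 in E9.5 embryos and 27 in yolk sac, and 26 passed in all 3 sets. Cbs and Vldlr were tested in both embryo sets, Slc7a3 in E8.5 embryos alone and Gdf15 in yolk sac alone. Nupr1, Chac1, Slc7a11 and Fgf21 were tested in none, and each of these 4 carries the motif. Fgf21, a secreted starvation hormone, was listed at 0 in 23 of 24 libraries, and its highest value was 0.0525.

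In E9.5 embryos 5 of 28 tested members were called (17.9 percent), while 13.6 percent of the 12027 genes tested were called, so the share of members was near that of all genes. Of the 28, 4 rose and 1 fell, beside 7.35 percent risen and 6.26 percent fallen among all genes, and after rescaling to TPM 2 rose and 5 fell, with the median of all genes at -0.34. Of the 28, 8 had an unadjusted p under 0.05, beside 35.6 percent of all genes. The median log2 fold change of the members was 0.09, against 0.01 over all genes tested. Groups did not overlap in 8 members, 5 with KO above WT and 3 with KO below, or 28.6 percent of those tested, while 22.2 percent of all genes had groups that did not overlap (11.2 percent above and 10.9 percent below). In E8.5 embryos none of 29 members was called by limma, where 0.957 percent of 13058 genes were, and 10 members had an unadjusted p under 0.05, beside 24.8 percent of all genes. Groups did not overlap in 9 of these 29 members, 4 above and 5 below, beside 15.7 percent of all genes (8.09 percent above and 7.58 percent below), and the median was -0.02 against 0.01 over all genes. In yolk sac none of 27 members was called by limma, where 2.84 percent of 12010 genes were (1.22 percent risen and 1.62 percent fallen), and 7 members had an unadjusted p under 0.05, beside 19.2 percent of all genes. Groups did not overlap in 3 yolk sac members, all with KO below WT, beside 12.5 percent of all genes (5.77 percent above and 6.74 percent below), and the median was -0.12 against 0.01.

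**Figure D1:**
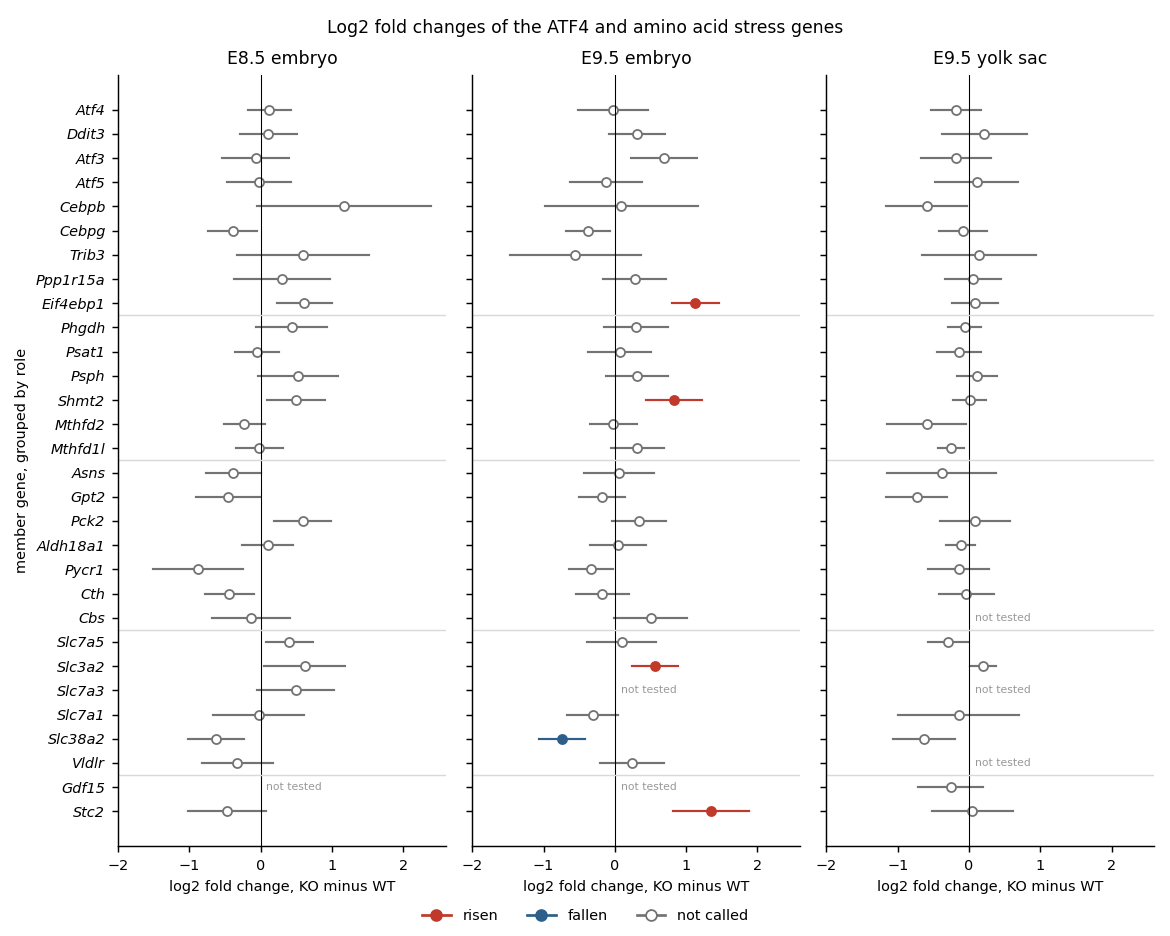
Log2 fold change (KO minus WT) of each tested member with its 95 percent confidence interval from limma, in the 3 sets (n = 4 KO and 4 WT each), with members grouped by role from regulators at the top to secreted proteins at the bottom. Filled points are the called members, all in the E9.5 embryo: Eif4ebp1, Stc2, Shmt2 and Slc3a2 risen and Slc38a2 fallen.

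Among the regulators, Eif4ebp1 was the 1 called gene of 9 tested in E9.5 embryos. It encodes 4E-BP1, which holds back cap-dependent translation by binding the cap-binding protein eIF4E, and it is also a known ATF4 target. Its level was 64.6, 73.5, 75.3 and 81.5 in E9.5 KO embryos, against 30.5, 28.3, 34.3 and 41.4 in E9.5 WT embryos. Every KO embryo was above every WT embryo. The log2 fold change was 1.13 ± 0.15 (SE, n = 4 each; a fold of 2.19 with a 95 percent interval of 1.74 to 2.75), and limma's adjusted p was 0.00626. In E8.5 embryos Eif4ebp1 was at 78.7, 94.6, 72.8 and 125 in KO and 59.3, 60.3, 53.2 and 64.4 in WT, again without overlap, but it was not called (log2 fold change 0.61 ± 0.17, limma adjusted p = 0.0862). In yolk sac the groups overlapped, with 35.2, 26.9, 30.6 and 33.1 in KO and 24.5, 25.9, 38.2 and 31.1 in WT, and the log2 fold change was 0.08 (95 percent interval -0.24 to 0.41).

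**Figure D2:**
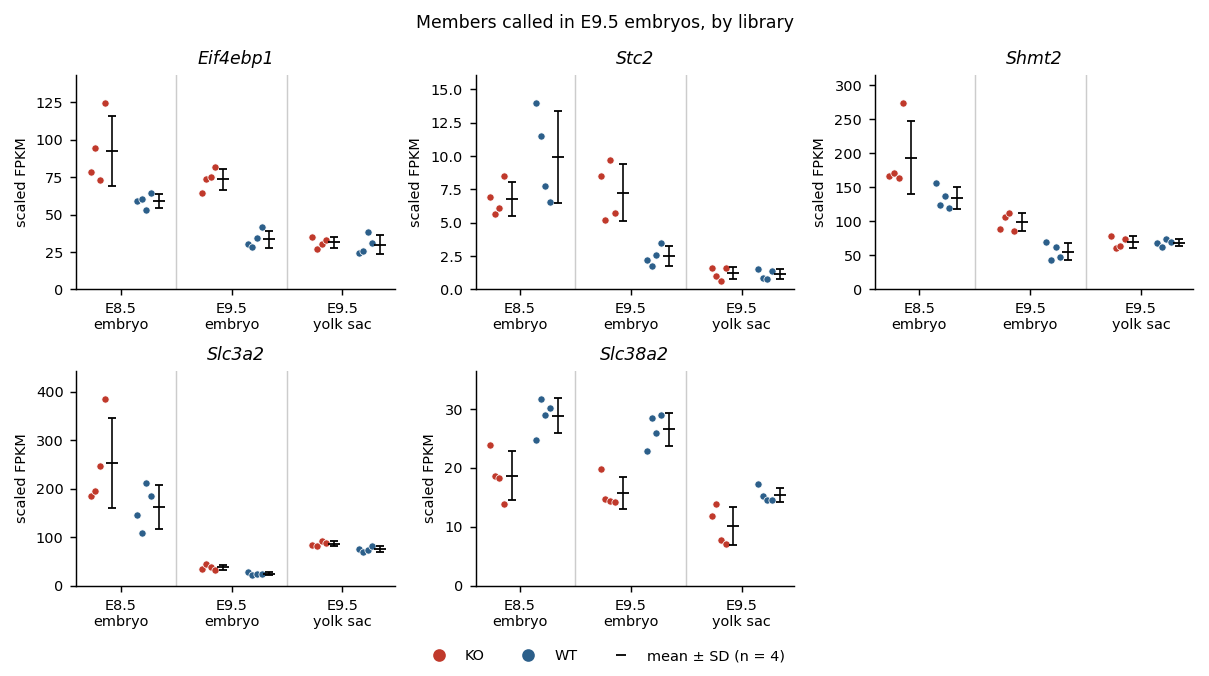
Scaled FPKM of the 5 members called in E9.5 embryos, with 1 point per library (KO in red, WT in blue, replicates 1 to 4 from left to right) and the mean ± SD beside each group (n = 4). Lengths differ between the E8.5 table and both E9.5 tables, so levels are read within a set: Eif4ebp1, Stc2, Shmt2 and Slc3a2 of E9.5 KO embryos sit above those of E9.5 WT embryos, and Slc38a2 of KO libraries sits below WT in all 3 sets.

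Atf4 mRNA was 69.5, 77.3, 49.1 and 91.4 in E9.5 KO embryos, against 51.1, 71.5, 86.7 and 80.6 in E9.5 WT embryos. The groups overlapped fully and the log2 fold change was -0.02 (95 percent interval -0.51 to 0.47). In E8.5 embryos Atf4 was 97.2, 105, 118 and 127 in KO and 91.2, 99.0, 113 and 106 in WT, with a log2 fold change of 0.12 (-0.18 to 0.43). In yolk sac it was 86.0, 72.2, 58.2 and 73.8 in KO and 66.2, 83.6, 103 and 78.0 in WT, with a log2 fold change of -0.18 (-0.53 to 0.16). At neither stage nor in yolk sac did KO and WT libraries separate by Atf4 mRNA.

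Ddit3, Trib3 and Asns, the targets most often used to read ATF4 output, were not called in any set. Ddit3 (CHOP, a factor tied to stress-induced cell death) was at 2.596, 3.68, 3.20 and 3.07 in E9.5 KO embryos, against 2.37, 1.84, 3.02 and 2.56 in E9.5 WT embryos (log2 fold change 0.31, 95 percent interval -0.08 to 0.70). The Ddit3 symbol has a second gene ID of 105 exonic bases that was listed at 0 in every library, and the main ID shares 6.1 percent of its exonic bases with other genes on its strand. Trib3, a pseudokinase that damps ATF4, was at 1.48, 1.45, 0.240 and 3.13 in E9.5 KO embryos, against 2.36, 1.43, 2.72 and 2.20 in E9.5 WT embryos. KO embryos held both the lowest and the highest Trib3 value, and the interval of its log2 fold change (-0.55) was -1.47 to 0.36. In E8.5 embryos its log2 fold change was 0.60 (-0.33 to 1.52) and in yolk sac 0.14 (-0.67 to 0.94).

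Asns makes asparagine from aspartate and carries the motif just upstream of its start. It was at 26.1, 25.7, 40.3 and 42.0 in E9.5 KO embryos, against 43.7, 25.2, 27.6 and 31.6 in E9.5 WT embryos. The log2 fold change of Asns was 0.06 (95 percent interval -0.43 to 0.55) in E9.5 embryos, -0.38 (-0.77 to 0.00) in E8.5 embryos and -0.38 (-1.15 to 0.38) in yolk sac. In E8.5 embryos it was at 56.0, 66.6, 79.8 and 77.6 in KO and 97.1, 112, 70.8 and 87.5 in WT, so that 3 of 4 WT embryos exceeded every KO embryo.

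Atf3, a factor induced by many stresses, came closest to a call among the motif-bearing members. It was at 5.34, 5.996, 3.52 and 4.53 in E9.5 KO embryos, against 2.01, 2.78, 2.71 and 3.81 in E9.5 WT embryos. One pair of embryos overlapped, and the log2 fold change was 0.69 ± 0.21 with a limma adjusted p of 0.0529. Atf3 was called there with FPKM as deposited (limma adjusted p = 0.0442) and with quantile normalization (0.0343). Over all genes 14.3 and 10.8 percent were called in these settings. At E8.5 the Atf3 log2 fold change was -0.07 and in yolk sac -0.18.

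**Figure D3:**
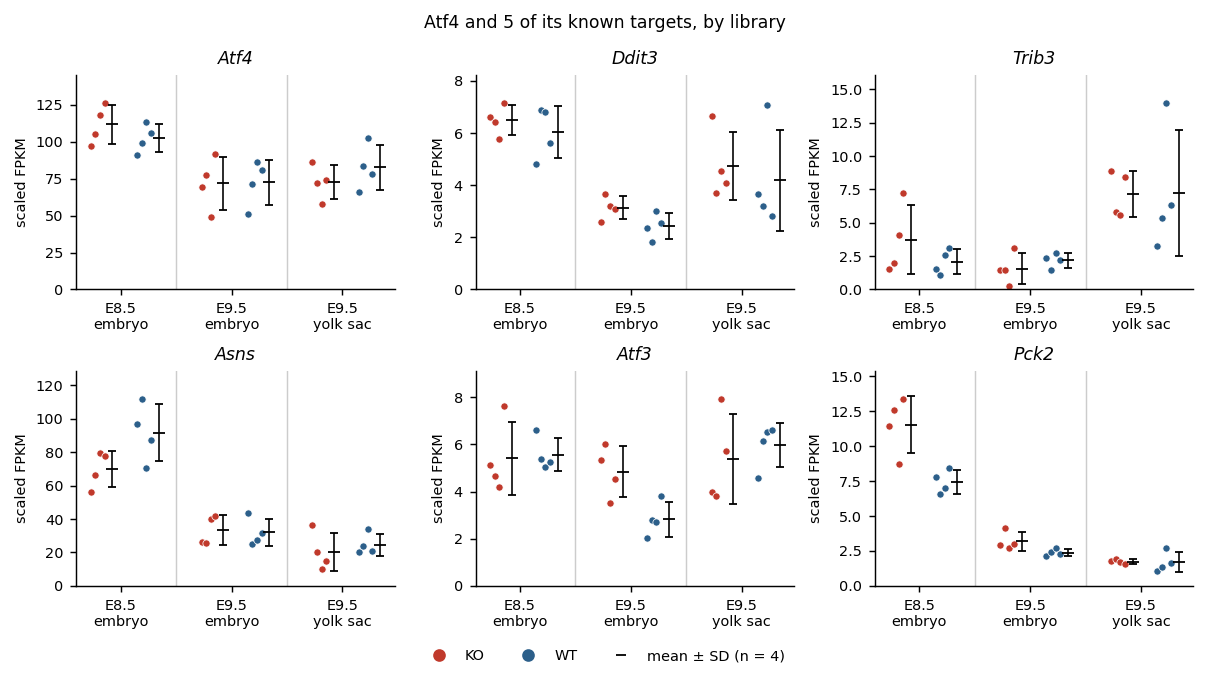
Scaled FPKM of Atf4 and 5 of its known targets by library (KO in red, WT in blue, mean ± SD beside each group, n = 4). KO and WT points overlap in all sets for Atf4, Ddit3, Trib3, Asns and Atf3, while Pck2 of KO embryos lies above WT embryos at both stages.

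The C/EBP partners and the other regulators were not called. Cebpg, a dimer partner of ATF4, was at 8.43, 7.50, 7.42 and 7.92 in E9.5 KO embryos, against 8.49, 11.2, 9.61 and 12.2 in E9.5 WT embryos, without overlap (log2 fold change -0.37 ± 0.14, limma adjusted p = 0.0905). It was below WT without overlap in E8.5 embryos too, at 17.3, 17.8, 19.2 and 15.6 in KO and 22.1, 22.3, 20.1 and 28.4 in WT (log2 fold change -0.39 ± 0.16, limma adjusted p = 0.156). Cebpb had the largest positive log2 fold change of the members in E8.5 embryos, 1.17 ± 0.55, on values spread from 2.48 to 16.2 in KO and 1.201 to 6.10 in WT (limma adjusted p = 0.216). Exons of Cebpb share 20.7 percent of their bases with Tmem189 on the opposite strand, and whether counting used strand is not stated. Ppp1r15a, the phosphatase subunit that reverses eIF2 phosphorylation, had log2 fold changes of 0.30, 0.28 and 0.05 in E8.5 embryos, E9.5 embryos and yolk sac. Atf5, a relative of ATF4 linked to mitochondrial stress, had -0.02, -0.12 and 0.11 in the same order. Nupr1, a stress-induced chromatin protein, stayed at or below 0.822 in every library.

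In the serine and folate group, Shmt2 was the 1 called enzyme of 6 in E9.5 embryos. Shmt2 splits serine into glycine and a one-carbon unit in mitochondria. Its level was 88.4, 107, 113 and 86.4 in E9.5 KO embryos, against 70.0, 43.5, 61.8 and 47.8 in E9.5 WT embryos. The groups did not overlap, and the log2 fold change was 0.83 ± 0.18 with a limma adjusted p of 0.0247. In E8.5 embryos Shmt2 was also higher without overlap, at 166, 172, 163 and 275 in KO and 156, 125, 137 and 119 in WT, but not called (0.50 ± 0.18, limma adjusted p = 0.136). In yolk sac the means were 69.5 ± 8.61 in KO and 68.8 ± 4.73 in WT (SD, n = 4 each), a log2 fold change of 0.01 with an interval of -0.22 to 0.24.

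Mthfd2 and Mthfd1l, which act after Shmt2 in mitochondrial folate metabolism, were not called. In E9.5 embryos the Mthfd2 mean was 22.1 ± 2.38 in KO and 22.5 ± 3.30 in WT, and its log2 fold change was -0.02 (95 percent interval -0.35 to 0.31). In E8.5 embryos Mthfd2 was at 70.5, 70.4, 76.9 and 57.1 in KO and 80.1, 80.7, 79.2 and 81.1 in WT, so that every KO embryo was lower although the log2 fold change was small, -0.23 ± 0.13. In yolk sac Mthfd1l was lower in KO without overlap, at 16.6, 15.6, 15.2 and 15.2 in KO and 16.6, 19.1, 20.4 and 19.0 in WT, where replicate 1 of both groups was nearly level, 16.61 in KO and 16.64 in WT (log2 fold change -0.25 ± 0.08, limma adjusted p = 0.144).

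Phgdh, Psat1 and Psph catalyse the successive steps that make serine from a glycolytic intermediate. Phgdh was among the most abundant members, at 420, 515, 501 and 954 in E8.5 KO embryos, against 408, 433, 449 and 387 in E8.5 WT embryos. Replicate 4 of the KO embryos stood far above the rest, and the log2 fold change was 0.44 ± 0.23 (limma adjusted p = 0.251). Psph showed the same library on top, at 84.3, 95.7, 104 and 186 in E8.5 KO embryos, against 76.5, 55.2, 103 and 83.2 in E8.5 WT embryos. Psat1 did not: its E8.5 values were 306, 320, 404 and 391.7 in KO and 350, 374, 399 and 346 in WT, with a log2 fold change of -0.05 (95 percent interval -0.37 to 0.26). In E9.5 embryos the log2 fold changes of Phgdh, Psat1 and Psph were 0.30, 0.07 and 0.31, and in yolk sac -0.06, -0.14 and 0.11, none of them called.

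**Figure D4:**
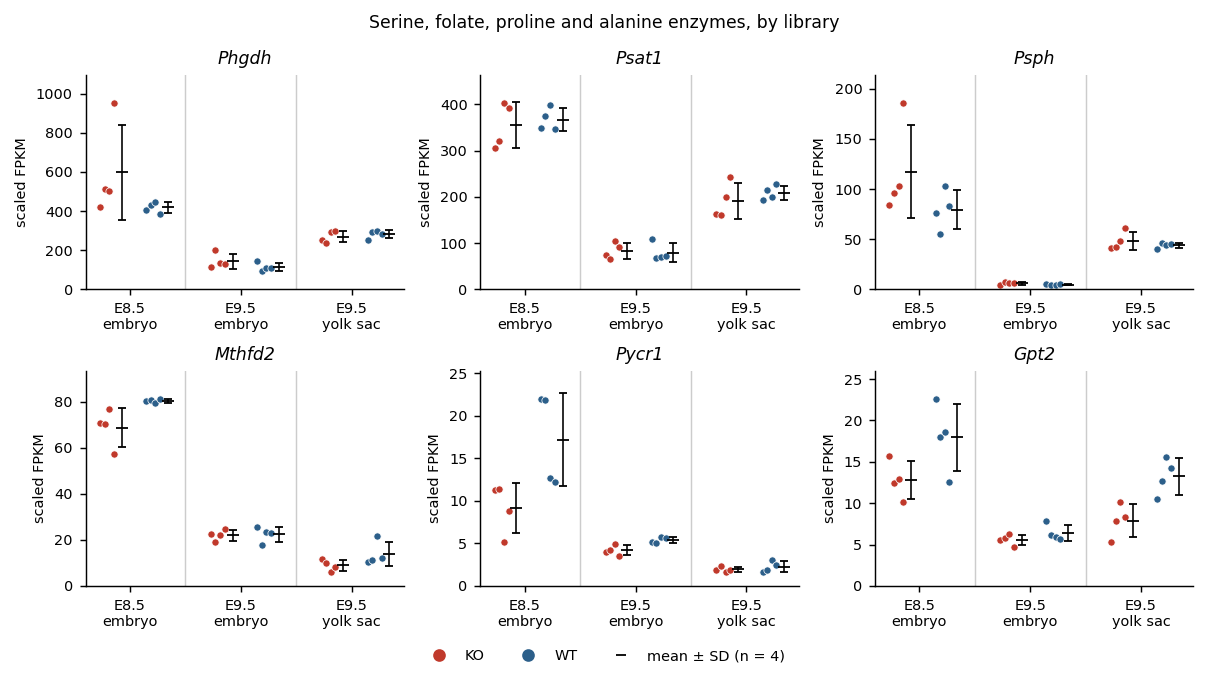
Scaled FPKM of 6 enzyme genes by library (KO in red, WT in blue, mean ± SD beside each group, n = 4). Phgdh and Psph of E8.5 KO replicate 4 stand apart at 954 and 186, Pycr1 of KO embryos lies below WT at both stages, and Gpt2 of KO yolk sacs lies below WT.

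None of the other amino acid enzymes was called in the main fit, and 4 of them, Pycr1, Pck2, Cth and Gpt2, had groups that did not overlap in 1 or more sets. With array weights Pycr1 and Cbs were called in E9.5 embryos (limma adjusted p = 0.0458 and 0.0433), beside 29.1 percent of all genes. Pycr1, the last enzyme of proline synthesis, was at 11.2, 11.4, 5.17 and 8.83 in E8.5 KO embryos, against 22.0, 21.9, 12.7 and 12.2 in E8.5 WT embryos. This was the most negative log2 fold change of the members in that set, -0.88 ± 0.29, with a limma adjusted p of 0.111. In E9.5 embryos Pycr1 was at 4.04, 4.27, 4.93 and 3.52 in KO and 5.21, 5.06, 5.78 and 5.59 in WT (log2 fold change -0.34 ± 0.14, limma adjusted p = 0.113). Pck2, which makes phosphoenolpyruvate in mitochondria, went the other way. It was at 11.4, 12.6, 8.70 and 13.4 in E8.5 KO embryos, against 7.76, 6.56, 6.98 and 8.45 in E8.5 WT embryos (log2 fold change 0.59 ± 0.18, limma adjusted p = 0.101). In E9.5 embryos it was at 2.901, 4.17, 2.69 and 2.97 in KO and 2.11, 2.45, 2.69 and 2.30 in WT (log2 fold change 0.34 ± 0.17, limma adjusted p = 0.173). Pycr1 and Pck2 both carry the motif, so motif-bearing members lay on both sides of 0.

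Cth, which releases cysteine from cystathionine, was at 16.4, 14.9, 15.5 and 15.9 in E8.5 KO embryos, against 21.4, 25.4, 17.3 and 22.7 in E8.5 WT embryos, without overlap (log2 fold change -0.44 ± 0.16, limma adjusted p = 0.128). Cbs, the enzyme before it, had a log2 fold change of 0.50 ± 0.23 in E9.5 embryos, on means of 1.83 ± 0.452 in KO and 1.16 ± 0.400 in WT (limma adjusted p = 0.146). Gpt2, a mitochondrial alanine aminotransferase, was the member nearest to a call in yolk sac, at 5.26, 7.88, 10.1 and 8.28 in KO and 10.4, 12.7, 15.6 and 14.2 in WT. The groups did not overlap, and the log2 fold change was -0.73 ± 0.19 with a limma adjusted p of 0.0733. Same-numbered yolk sac libraries deviated together. With the replicate number as a block 2 members were called, beside 5.31 percent of all genes. They were Gpt2 (limma adjusted p = 0.0132) and Cebpb (log2 fold change -0.59, limma adjusted p = 0.0224). The yolk sac Cebpb values behind the call were 9.36, 11.5, 17.3 and 11.0 in KO and 12.9, 16.1, 29.3 and 18.2 in WT, lower in KO in 4 of 4 numbered pairs. Summed macrophage markers were also lower in KO in 4 of 4 pairs, at 14.2, 23.6, 20.05 and 18.4 in KO yolk sacs and 26.4, 43.8, 70.6 and 29.8 in WT yolk sacs, and their part in the Cebpb result was not tested. Aldh18a1, the first enzyme of proline synthesis, had log2 fold changes of 0.10, 0.05 and -0.12 in E8.5 embryos, E9.5 embryos and yolk sac. Chac1, a glutathione-degrading enzyme that marks acute ATF4 activity, stayed at or below 0.815 in every library.

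Transporters moved in both directions. Slc38a2 (SNAT2), a sodium-coupled carrier of small neutral amino acids that cells raise when amino acids run short, was the only member whose KO libraries lay below all WT libraries in all 3 sets. It was at 19.8, 14.7, 14.3 and 14.3 in E9.5 KO embryos, against 23.0, 28.5, 25.9 and 28.9 in E9.5 WT embryos, a called fall of 0.74 ± 0.15 on the log2 scale (limma adjusted p = 0.0213). In E8.5 embryos it was at 24.0, 18.6, 18.4 and 13.9 in KO and 24.7, 31.7, 29.0 and 30.1 in WT (log2 fold change -0.63 ± 0.18, limma adjusted p = 0.0858). In yolk sac it was at 11.8, 13.9, 7.78 and 7.13 in KO and 17.2, 15.2, 14.6 and 14.7 in WT (log2 fold change -0.63 ± 0.19, limma adjusted p = 0.123). A term splitting replicates 1 and 2 from 3 and 4 called Slc38a2 in E8.5 embryos (limma adjusted p = 0.0341) and in yolk sac (0.0294). Over all genes 12.7 and 6.51 percent were called with that term. The size of the Slc38a2 fall was close in the 3 sets, and the tests of the difference between stages (-0.11, 95 percent interval -0.59 to 0.37) and between tissues (0.11, -0.42 to 0.64) were not called.

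Slc3a2 (CD98, the shared heavy chain of several amino acid exchangers) was at 34.1, 45.9, 39.2 and 32.7 in E9.5 KO embryos, against 29.5, 22.6, 25.3 and 24.4 in E9.5 WT embryos. The groups did not overlap, and its log2 fold change of 0.56 ± 0.15 was called with a limma adjusted p of 0.0366. Its light chain for leucine uptake, Slc7a5 (LAT1), was not called in that set, at 26.6, 36.3, 28.0 and 22.2 in KO and 31.3, 18.2, 33.8 and 23.6 in WT (log2 fold change 0.10, 95 percent interval -0.38 to 0.58). In E8.5 embryos Slc7a5 was at 74.7, 72.9, 82.1 and 107 in KO and 64.6, 58.4, 61.3 and 67.2 in WT, without overlap (0.40 ± 0.15, limma adjusted p = 0.138), and Slc3a2 had 0.62 ± 0.26 (limma adjusted p = 0.174). In yolk sac the log2 fold changes were 0.19 for Slc3a2 and -0.30 for Slc7a5, neither called.

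The arginine carriers Slc7a1 and Slc7a3 and the lipoprotein receptor Vldlr were not called. Slc7a1 had log2 fold changes of -0.03, -0.31 and -0.14 in E8.5 embryos, E9.5 embryos and yolk sac, Slc7a3 had 0.49 in E8.5 embryos, and Vldlr had -0.33 in E8.5 and 0.24 in E9.5 embryos. Slc7a3 was at 2.26, 2.41, 0.601 and 0.763 in yolk sac KO libraries, against 0.374, 0.830, 0.738 and 0.973 in yolk sac WT libraries, below the filter. Vldlr, also below the filter there, was at 0.188, 0.795, 0.629 and 0.183 in yolk sac KO libraries, against 0.158, 0.104, 0.234 and 0.152 in yolk sac WT libraries. In both genes 2 of the 4 KO yolk sacs stood above all others, replicates 1 and 2 for Slc7a3 and replicates 2 and 3 for Vldlr. Summed trophoblast markers were at 181, 491, 67.0 and 87.3 in KO yolk sacs, highest in replicate 2 and lowest in replicate 3. They were at 25.2 to 45.7 in WT yolk sacs. Summed decidua and parietal endoderm markers were at 1007, 2854, 790 and 596 in KO yolk sacs, highest in replicate 2 as well. They were at 459 to 543 in WT yolk sacs. Neither set of sums overlapped between groups, and the part of these markers in the 2 genes' values was not tested. Slc7a11, the cystine carrier, stayed at or below 0.611 in every library.

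Of the secreted members, Stc2 had the largest fold change of the list in E9.5 embryos. It encodes stanniocalcin 2, a glycoprotein hormone that restrains growth factor signalling through IGF. It was at 8.48, 5.19, 9.68 and 5.70 in E9.5 KO embryos, against 2.24, 1.73, 2.599 and 3.51 in E9.5 WT embryos. The groups did not overlap, and the log2 fold change was 1.35 ± 0.24 (a fold of 2.55 with an interval of 1.77 to 3.69, limma adjusted p = 0.0173). In E8.5 embryos the order was the other way without a call, at 6.94, 5.63, 6.10 and 8.501 in KO and 14.0, 11.5, 7.73 and 6.54 in WT (-0.47 ± 0.25, limma adjusted p = 0.258). In yolk sac Stc2 was low in both groups, with means of 1.23 ± 0.466 in KO and 1.16 ± 0.373 in WT. Gdf15, a stress-induced hormone, was measured above the filter in yolk sac alone, at 1.09, 0.929, 0.668 and 1.59 in KO and 1.27, 1.29, 1.60 and 1.21 in WT (log2 fold change -0.26, 95 percent interval -0.72 to 0.20).

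The call of Eif4ebp1 in E9.5 embryos held whichever single library was left out, in 8 of 8 fits. Stc2 held in 6 of 8 and was lost without WT replicate 2 (limma adjusted p = 0.0652) or WT replicate 3 (0.051). Slc38a2 held in 3 of 8, losing its call without KO replicate 2, 3 or 4 or WT replicate 2 or 3. Shmt2 and Slc3a2 held in 2 of 8, without KO replicate 1 or WT replicate 1. In those 2 fits 16.3 and 22.8 percent of all genes were called, beside 0.731 to 4.8 percent in the other fits. The log2 fold change over the 8 fits was 0.713 to 0.949 for Shmt2 and 0.467 to 0.632 for Slc3a2. KO replicate 2 and WT replicates 1 and 3 of the E9.5 embryos were low in the tail gene T, at 0.990 in the KO embryo and 0.511 and 1.23 in these WT embryos, with 8.86 to 18.6 in the remaining 5, and WT replicates 1 and 3 were low in summed cardiomyocyte markers, at 18.4 and 22.1. Without these 3 libraries the 5 log2 fold changes ran from -0.83 for Slc38a2 to 1.46 for Stc2 and none was called, with limma adjusted p from 0.0627 for Eif4ebp1 to 0.0751 for Slc3a2. In that fit 0.296 percent of all genes were called. With the gene length trend removed, Slc3a2 was not called in E9.5 embryos (log2 fold change 0.465, limma adjusted p = 0.0608). Slc38a2 was then at -0.523, Eif4ebp1 at 0.92, Shmt2 at 0.687 and Stc2 at 1.4, all called, beside 7.83 percent of all genes.

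Markers of several cell types were called in E9.5 embryos, where 7.35 percent of all genes rose and 6.26 percent fell. Of 10 neural progenitor markers tested 6 fell, with sums of 66.6 to 101 in KO and 91.1 to 217 in WT, and of 16 primitive erythroid markers 3 fell, with sums of 1291 to 13194 in KO and 6197 to 11219 in WT. Of 12 decidua and parietal endoderm markers 2 rose, with sums of 214 to 336 in KO and 155 to 208 in WT. Of the other marker lists, 1 of 10 endothelial markers fell, 1 of 3 trophoblast and 1 of 10 tailbud markers rose, and no visceral endoderm, cardiomyocyte or macrophage marker was called in E9.5 embryos. In E8.5 embryos no marker of any list was called. In yolk sac 1 marker each of visceral endoderm, erythroid cells and macrophages fell and 1 each of trophoblast and endothelium rose. Over all yolk sac genes 1.22 percent rose and 1.62 percent fell. In bulk tissue, fewer cells of a type and less RNA per cell cannot be told apart, and the part of these markers in the 5 calls was not tested.

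Tests of the difference between sets singled out 1 member. In the contrast of yolk sac minus embryo at E9.5, 1 of 29 members was called, where 1.81 percent of 13783 genes were. This was Eif4ebp1, whose KO effect was lower in yolk sac by 1.05 ± 0.21 on the log2 scale (limma interaction, adjusted p = 0.0291). Shmt2 (-0.82 ± 0.21, adjusted p = 0.0539) and Stc2 (-1.30 ± 0.35, adjusted p = 0.0640) followed without a call in limma. In the contrast of E9.5 minus E8.5 embryos none of 29 members was called by limma, where 0.0362 percent of 13824 genes, or 5, were, and 3 members had an unadjusted p under 0.05, beside 5.2 percent of all genes. The largest of these stage differences was that of Stc2, 1.83 ± 0.36 (limma interaction, adjusted p = 0.114). Both contrasts share the E9.5 embryo libraries. The Eif4ebp1 tissue difference held in 8 of 16 fits that each left out 1 library, with adjusted p between 0.0158 and 0.0699. Over all genes these fits called 0.0511 to 9.66 percent. The Eif4ebp1 call was lost without embryo KO replicate 2, 3 or 4, embryo WT replicate 2 or 3, yolk sac KO replicate 2, or yolk sac WT replicate 3 or 4. It was not called after rescaling to TPM (adjusted p = 0.0653) or with the replicate block (adjusted p = 0.0718), which called 0 of 13783 genes in this contrast. Here the block paired embryo and yolk sac of the same genotype and number, whose deviations correlated at -0.0533 to 0.269.

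The members were not steady among libraries of 1 group. In yolk sac, WT replicate 3 held the highest value of the 8 libraries in 15 of 27 tested members (55.6 percent), among them Atf4, Ddit3, Trib3, Cebpb, Mthfd2, Pck2 and Pycr1, while it was the highest in 15.2 percent of all genes tested. Mthfd2 was at 21.5 there and at 10.4, 11.3 and 12.3 in the other WT yolk sacs, and Trib3 at 14.0 beside 3.27, 5.37 and 6.30. In E8.5 embryos, KO replicate 4 held the highest value in 14 of 29 members (48.3 percent) and in 27.0 percent of all genes tested. In E9.5 embryos the most frequent library was KO replicate 2, with 8 of 28 members (28.6 percent) and 19.3 percent of all genes.

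**Figure D5:**
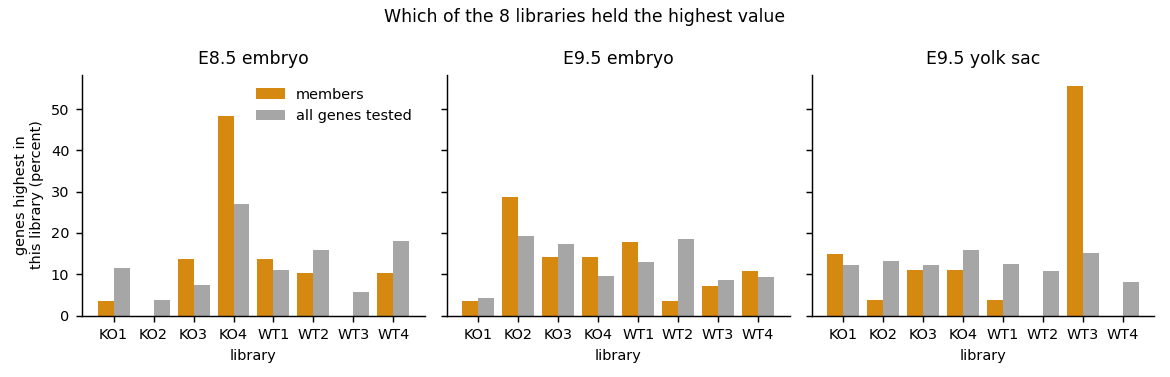
Percent of the tested members (orange) and of all genes tested (grey) for which each library held the highest scaled FPKM of the 8 libraries of its set, KO libraries to the left of WT libraries. Yolk sac WT replicate 3 holds 55.6 percent of the members and 15.2 percent of all genes, and E8.5 KO replicate 4 holds 48.3 percent and 27.0 percent.

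These libraries also stood out in markers. Summed primitive erythroid markers were at 17139 to 37648 in KO yolk sacs and 51319 in WT replicate 3, the highest of all 8, and summed macrophage markers at 14.2 to 23.6 in KO yolk sacs and 26.4 to 70.6 in WT yolk sacs, highest in WT replicate 3. E8.5 KO replicate 4 had the highest sum of visceral endoderm markers, 8610, where the other KO embryos had 4244 to 6245 and WT embryos 2018 to 5735. It was also highest in erythroid markers, at 7071, where the other KO embryos had 227 to 3128 and WT embryos 3090 to 4124. The part of these markers in the member values was not tested. Without yolk sac WT replicate 3 the median log2 fold change of the members in that set was -0.03, Ddit3 was at 0.47 and Trib3 at 0.50. No member was called by limma, beside 2.36 percent of all genes. Without E8.5 KO replicate 4 the median was 0.02, Eif4ebp1 was at 0.46, Phgdh at 0.19 and Slc3a2 at 0.39. No member was called, beside 0.225 percent of all genes.

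Levels of several members differed widely between the E9.5 tissues of the WT mice. The tables were scaled separately, so these values are set side by side without a test. Psph was at 40.6 to 46.1 in WT yolk sacs and 3.99 to 5.86 in WT embryos, Cebpb at 12.9 to 29.3 and 1.12 to 3.25, and Slc3a2 at 69.3 to 82.9 and 22.6 to 29.5. Like Cebpb, Psph shares exonic bases with a gene on the opposite strand (10.4 percent, with Cct6a), and use of strand is not given. Phgdh was at 253 to 298 in WT yolk sacs and 95.8 to 146 in WT embryos. Slc38a2 was lower in yolk sac, at 14.6 to 17.2 beside 23.0 to 28.9, and Vldlr and Cbs were above the filter in embryos alone.

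Genes upstream of ATF4 and beside it were read from 6 further lists, whose median log2 fold changes in E9.5 embryos ran from -0.10 (eIF2 and eIF2B) to 0.37 (amino acid enzymes), beside 0.01 over all genes. The counts of each list are read against the 7.35 percent of all genes that rose and the 6.26 percent that fell in E9.5 embryos. Among 17 tested eIF2 kinases, phosphatases, eIF2 subunits and subunits of eIF2B, the factor that recharges eIF2 with GTP, 2 rose in E9.5 embryos and none was called in the other sets. They were Eif2b5 (105 ± 19.3 in KO, 66.2 ± 11.7 in WT, log2 fold change 0.66 ± 0.17, limma adjusted p = 0.0370) and Eif2b4 (30.2 ± 4.23 in KO, 19.5 ± 1.25 in WT, 0.61 ± 0.14, limma adjusted p = 0.0268). The KO effect of both was lower in yolk sac than in embryo (-0.88 and -0.74, limma adjusted p = 0.0371 and 0.0291), a call that held in 4 of 16 fits that each left out 1 library for Eif2b5 and 9 of 16 for Eif2b4, and in neither with the replicate block. That block called 0 of 13783 genes in this contrast. Of the chaperones and regulators of the endoplasmic reticulum, which follow the ATF6 and XBP1 arms of the unfolded protein response, 23 were tested in E9.5 embryos. Creld2 (0.60) and Derl1 (0.53) rose and Dnajc3 (-0.54) fell there, and none was called in E8.5 embryos or yolk sac. Of 12 mitochondrial stress genes, the matrix proteases Clpp (0.78) and Lonp1 (0.56) rose in E9.5 embryos and the inner membrane proteases Oma1 (-0.68) and Yme1l1 (-0.55) fell. Oma1, whose cleavage of DELE1 relays mitochondrial stress to eIF2 phosphorylation in human cells, also fell in yolk sac (-0.72 ± 0.14, limma adjusted p = 0.0273).

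The other ATF4-linked genes outside the members gave 5 risen of 18 tested in E9.5 embryos, 2 in E8.5 embryos and 2 in yolk sac, with none fallen, where 7.35, 0.528 and 1.22 percent of all genes rose in the same order of sets. The list medians were 0.17, 0.27 and 0.04. Sesn2, a brake on mTORC1 that p53 also induces, was at 23.5 ± 4.45 in E8.5 KO embryos and 6.39 ± 1.17 in E8.5 WT embryos (log2 fold change 1.80 ± 0.19, limma adjusted p = 0.0013). Tnfrsf10b, a death receptor that p53 and CHOP both induce, rose in all 3 sets, by 1.54 in E8.5 embryos, 1.98 in E9.5 embryos and 1.13 in yolk sac. Ddit4, another mTORC1 brake that p53 and low oxygen also induce, rose in E9.5 embryos (83.6 ± 44.4 in KO, 14.2 ± 3.83 in WT) and in yolk sac (3.76 ± 1.16 in KO, 0.995 ± 0.574 in WT). The other risen genes in E9.5 embryos were Sesn2, Sqstm1 and Got1, named after their values were seen. The KO effect of Sesn2 was lower in yolk sac than in embryo by 1.34 ± 0.26 on the log2 scale (limma adjusted p = 0.026), and 4 genes of this list, with Got1, Tnfrsf10b and Sqstm1, were called fallen in that contrast, where 1.81 percent of all genes were called. Leaving out 1 library at a time, these calls held in 10 of 16 fits for Sesn2, 5 for Got1, 3 for Sqstm1 and 2 for Tnfrsf10b. None held with the replicate block, which called 0 of 13783 genes in this contrast.

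Of 17 folate and glycine enzymes outside the members 4 rose in E9.5 embryos, where 7.35 percent of all genes did, while the list's median was -0.09. The risen were led by Ahcy, which clears S-adenosylhomocysteine (254 ± 53.8 in KO, 148 ± 21.6 in WT), and Gart of purine synthesis (82.9 ± 12.6 in KO, 50.7 ± 8.95 in WT). Shmt1, the cytosolic counterpart of Shmt2, fell in yolk sac (27.0 ± 3.41 in KO, 41.7 ± 2.23 in WT, log2 fold change -0.63 ± 0.10, limma adjusted p = 0.0137). Of 16 amino acid enzymes outside the members 6 rose in E9.5 embryos (list median 0.37), led by the urea cycle genes Ass1 (1.502 ± 0.36, groups overlapping) and Asl (0.89 ± 0.18). In yolk sac 1 of 15 was called, Arg1, which splits arginine (1.92 ± 0.557 in KO, 0.625 ± 0.153 in WT). It passed the filter only through the KO libraries, so its call is a description. Of the genes named from these lists in E9.5 embryos, Tnfrsf10b, Ddit4 and Sesn2 kept their call in 8 of 8 fits that left out 1 library, Sqstm1 did so in 6 of 8, and the others, Got1 included, in 1 to 4 of 8. These fits called 0.731 to 22.8 percent of all genes. In yolk sac Tnfrsf10b kept its call in 8 of 8, Shmt1 in 7 of 8, Ddit4 and Oma1 in 2 of 8, and Arg1 in 0 of the 4 in which it passed the filter. There the fits called 0.65 to 2.36 percent of all genes.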

How the data were processed

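Total RNA of 24 mouse samples was sequenced, and per the labels' protocols libraries were made with an NEBNext Ultra kit. The authors deposited FPKM values in 3 tables. DESeq2 and the builds GRCm38 and mm10 are named per the submitters' processing notes. Aligner, counter and use of strand remain not given in the sources used here. Symbols, positions and lengths came from GENCODE M21 (54495 of 54532 IDs matched). Low FPKM values were whole multiples of 1 fragment in 97.6 to 98.6 percent of cases per library (tolerance 0.02 fragments), where length was the mean over transcripts for E8.5 and the exon union for both E9.5 tables, so levels are not compared between them. Title and genotype tag disagreed in 24 of 24 samples. Titles were used, and Cmtr2 was lower in every library titled KO (exact two-sided permutation p = 0.0286 in each set, the smallest that 4 against 4 allow).

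FPKM were scaled by median-of-ratios factors over tested genes, and a pseudocount of 0.5 was added, which understates folds of low genes. Then limma 3.58.1 in R 4.3.3 was fitted with genotype alone and a mean-variance trend. Differences between sets were interaction terms over 16 libraries. In the tissue contrast the replicate block paired embryo and yolk sac of the same genotype and number, while elsewhere it paired KO and WT of the same number. The code was tested on simulated data. Tables used pandas 2.3.3 and numpy 2.4.6 in Python 3.11.15, and figures matplotlib 3.10.9. The members and lists were chosen with earlier results of these data known. All members are named, and up to 2 risen and 2 fallen called genes of each further list. Beyond this, Sesn2, Sqstm1 and Got1 in E9.5 embryos and Got1 and Sqstm1 in the tissue contrast were named after their values were seen. Same-numbered yolk sac libraries deviated together (correlations of 0.209 to 0.387 in 4 of 4 pairs), so numbers were taken to pair the yolk sac samples. Differently numbered KO and WT yolk sacs within replicates 1 and 2, or within 3 and 4, also correlated, at 0.170 to 0.295. All correlations across that split were negative, so pairing by number is not told apart from the split. Whether the numbers mark litters is unknown. Alternatives changed the pseudocount, filter, scaling, trend, weights, block and length trend, used voom on recovered fragments, or left out libraries.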

Additional observations from a re-analysis of the deposited data

Results flagged for a closer look

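In 6 of 168 combinations of member and group, 1 library lay far from the other 3 of its group by Dixon's criterion, which chance meets in about 1 of 20 groups. In E8.5 KO embryos, Shmt2 was at 274.5 in replicate 4 and 163 to 172 in the others, and Slc7a1 was at 21.2 in replicate 3 and 8.02 to 9.85 in the others. In E9.5 embryos, Slc38a2 was at 19.8 in KO replicate 1 and 14.3 to 14.7 in the other KO embryos, Psat1 was at 109 in WT replicate 1 and 68.9 to 72.0 in the other WT embryos, and Atf5 was at 17.5 in WT replicate 3 and 12.6 to 13.3 in the other WT embryos. In yolk sac, Mthfd2 was at 21.5 in WT replicate 3 and 10.4 to 12.3 in the other WT libraries. The KO effect on Eif4ebp1 differed between tissues, at -1.05 on the log2 scale for yolk sac minus embryo by the limma interaction test. The call held in 8 of 16 fits that each left out 1 library, and was lost with the replicate block (limma adjusted p = 0.0718) and after rescaling to TPM (0.0653). The block called 0 of 13783 genes in this contrast.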

How the results depend on the processing

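No alternative reversed a called value. The count of 5 members called in E9.5 embryos became 1 with no filter, 8 with array weights and 2 with the replicate block. It became 0 without the 3 libraries low in tail genes, and 1 to 6 when 1 library was left out. Over all genes the share called was 0.731 to 22.8 percent when 1 library was left out. In E8.5 embryos the count of 0 became 4 with the replicate block (Cebpb, Eif4ebp1 and Slc3a2 up, Pycr1 down) and 5 with a term that split replicates 1 and 2 from 3 and 4, with Slc38a2 added. In yolk sac the count of 0 became 1 with array weights and 2 with the replicate block. It became 2 with the same split and 1 with voom on recovered fragments. Gpt2 was among the called in each case, joined by Cebpb with the block and Slc38a2 with the split. Over all yolk sac genes 5.49, 5.31, 6.51 and 3.79 percent were called with array weights, block, split and voom, in place of 2.84 percent. The tissue difference count of 1 became 2 at FPKM of at least 5, 2 with FPKM as deposited and 0 after rescaling to TPM. It became 0 with the replicate block, 2 without the 3 libraries low in tail genes and 0 to 3 when 1 library was left out. Of 13783 genes the block called 0, and fits without 1 library called 0.0511 to 9.66 percent of all genes. The causes were not tested. Rescaling to TPM moved the median of all genes to -0.34 in E9.5 embryos and -0.11 in E8.5 embryos, where the members' medians were -0.27 and -0.15. The calls over all genes were then 132 risen and 3113 fallen in E9.5 embryos in place of 884 and 753, and 33 and 108 in E8.5 embryos in place of 69 and 56. In yolk sac the calls were 87 risen and 192 fallen in place of 146 and 195, and for the tissue difference, where the median of all genes moved to 0.30, 855 and 44 in place of 88 and 162. FPKM as deposited gave 71 risen and 99 fallen in E8.5 embryos. The members' median was -0.027 with quantile normalization in E9.5 embryos. When 1 library was left out it was 0.002475 to 0.10 in E8.5 embryos, 0.0519 to 0.196 in E9.5 embryos and -0.168 to -0.0347 in yolk sac. All-gene calls in E9.5 embryos were 29 risen and 6 fallen without the 3 libraries low in tail genes, 108 and 38 with the replicate block, 1688 and 1810 with array weights, and 82 and 30 of 29833 with no filter. In E8.5 embryos they were 714 and 547 of 13058 with the replicate block and 938 and 714 with the split. In E9.5 embryos 7 members were called after TPM rescaling. Eif4ebp1 (0.78) and Stc2 (1.11) rose, and Slc38a2 (-1.11), Cebpg (-0.74), Pycr1 (-0.71), Slc7a1 (-0.68) and Cth (-0.54) fell, while Slc3a2 (0.21) and Shmt2 (0.48) were not called. Same-numbered libraries correlated at 0.0649 to 0.382 in E8.5 embryos and -0.207 to 0.154 in E9.5 embryos, and 4 of 8 and 1 of 8 libraries correlated best with their own number, so numbers were not taken as pairs there. The 4 members below the filter in every set were not tested, so a difference in them could not be detected.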
